A study of Mus musculus with 125 samples.

Results

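The Polycomb group genes described here are 10 of the 43421 genes in the count table, taken by symbol after the Ensembl identifiers of the table were matched to mouse gene names. They are Ezh1, Ezh2, Eed, Suz12 and Jarid2 of Polycomb repressive complex 2 (PRC2), and Ring1, Rnf2, Bmi1, Pcgf1 and Pcgf6 of Polycomb repressive complex 1 (PRC1). All 10 were found in the table. RNA was sequenced from single 2-cell mouse embryos. The study set embryos whose zygotes had shown 1 pronucleus (1PN) beside those whose zygotes had shown 2 (2PN). Zygotes were picked at 10 h post-fertilization and freed of the second polar body, and collection followed at 34 h.

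The embryos compared fall into 7 groups by strain, by pronuclei scored and by the submitters' in silico call. Some embryos scored as 1PN were called parthenotes in silico, and they are named uniparental 1PN embryos below. From the cross written JF1/Ms x C57BL/6 there were 4 uniparental 1PN, 3 1PN and 21 2PN embryos. From the cross written C57BL/6 x JF1/Ms there were 8 uniparental 1PN, 11 1PN and 43 2PN embryos. A further 31 embryos were C57BL/6 parthenotes, made without fertilization. The labels used here do not say which strain was the mother, which embryos share parents, or how the in silico call was made. P-values therefore measure only the spread between these embryos.

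PRC2 places the histone mark H3K27me3 on silent genes. Ezh1 and Ezh2 are its alternative methyltransferases, Eed and Suz12 are core subunits that the enzyme needs, and Jarid2 is an accessory subunit that helps to bring the complex to its targets. PRC1 ubiquitinates histone H2A through the RING finger protein Ring1 or Rnf2, and each PRC1 complex holds 1 Pcgf protein. Bmi1, also known as Pcgf4, belongs to canonical PRC1 with a Cbx subunit, whereas Pcgf1 and Pcgf6 define variant complexes, with Kdm2b and Bcor around Pcgf1 and with L3mbtl2, E2f6 and Mga around Pcgf6. In mouse oocytes and early embryos Polycomb marks are inherited from the oocyte, and maternal H3K27me3 keeps the maternal allele of some imprinted genes silent.

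The start regions of 4 of the members called below are shown first, chosen because Bmi1 and Suz12 were higher and Pcgf6 was lower in uniparental embryos, and Ezh1 was lower in parthenotes. Each line gives bases before the gene's start, 5′ to 3′, from RefSeq on GRCm38.p6. Bmi1, Suz12 and Ezh1 have 250 bases each, and Pcgf6 has 217, since the rest of its window lies within the extent of the gene. Bmi1 is read from chr2:18676768-18677017 on the plus strand, Suz12 from chr11:79992856-79993105 on the plus strand, Pcgf6 from chr19:47050940-47051156 on the minus strand and Ezh1 from chr11:101226464-101226713 on the minus strand. Capitals mark GC boxes, spelled GGGCGG, as well as the CCAAT box by its own letters and the E-box of the letters CACGTG. Each was searched on both strands.
Bmi1: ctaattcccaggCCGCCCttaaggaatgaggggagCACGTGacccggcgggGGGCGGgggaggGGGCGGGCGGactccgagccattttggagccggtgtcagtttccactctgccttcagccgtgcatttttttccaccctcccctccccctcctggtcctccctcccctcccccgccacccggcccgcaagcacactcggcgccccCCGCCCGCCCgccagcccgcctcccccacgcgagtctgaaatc
Suz12: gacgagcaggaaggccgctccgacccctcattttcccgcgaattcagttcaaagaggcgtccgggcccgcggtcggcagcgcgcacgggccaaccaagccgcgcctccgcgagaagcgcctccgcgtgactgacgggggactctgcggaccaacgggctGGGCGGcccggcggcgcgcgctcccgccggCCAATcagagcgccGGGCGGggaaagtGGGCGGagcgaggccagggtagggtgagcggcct
Pcgf6: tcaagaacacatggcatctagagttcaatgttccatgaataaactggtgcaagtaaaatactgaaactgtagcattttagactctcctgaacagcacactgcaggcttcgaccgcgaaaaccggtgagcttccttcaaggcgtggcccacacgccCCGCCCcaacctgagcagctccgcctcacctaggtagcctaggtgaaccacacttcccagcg
Ezh1: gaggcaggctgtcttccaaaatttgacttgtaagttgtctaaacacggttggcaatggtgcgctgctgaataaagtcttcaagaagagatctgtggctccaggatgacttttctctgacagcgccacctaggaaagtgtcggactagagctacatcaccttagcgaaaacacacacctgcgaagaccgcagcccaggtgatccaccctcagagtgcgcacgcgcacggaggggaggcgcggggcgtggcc
The Bmi1 window holds 6 GC boxes, some of them overlapping, and 1 E-box. Of 32851 windows of 250 bases in the reference, 32.7% hold a GC box and 6.02% hold that E-box. The Suz12 window holds 3 GC boxes and 1 CCAAT box, which 33.8% of all windows hold. The Pcgf6 stretch has 1 GC box, and the Ezh1 window has none of these motifs. An E2F site (TTTGGCGC) was searched as well and occurs in none of the 4 sequences and in 0.417% of all windows. Suz12 has 37 CpG dinucleotides in its window, Bmi1 21 and Ezh1 14, against a median of 6 over all windows, and Pcgf6 has 9 in its shorter stretch. These matches are a description of the letters in the window. Of the 10 members 9 had such a window, and Pcgf1 had none.

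The shallowest library had 533116 gene counts, the deepest 4887190 and the median one 3392243. Levels are given in CPM, an embryo's counts of a gene scaled to a common library total, so a higher share of one RNA cannot be told apart from a lower amount of the others. The 4 uniparental 1PN embryos of JF1/Ms x C57BL/6, numbered 1, 2, 3 and 7, did not form an even group. The summed level of 14 transcripts typical of the 2-cell stage was 16.7 CPM in embryo 1 and 251.3 CPM in embryo 2, against 4855 CPM in embryo 3 and 4420 CPM in embryo 7. The summed level of 19 oocyte transcripts was 35918 and 29956 CPM in embryos 1 and 2, and 7350 and 7151 CPM in embryos 3 and 7. Calls and fold changes that rest on this group are therefore also given without embryos 1 and 2. Summed markers of cumulus cells stayed between 3.92 and 222.8 CPM and those of blood between 0 and 134.9 CPM in all embryos compared. Of the 12 cumulus markers 8 were at 0 in the median embryo, among them Fshr, Inha and Foxl2.

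Bmi1, which organizes canonical PRC1 (chromosome 2, 18677018 to 18686629, GRCm38), rose more in uniparental 1PN embryos than any of the other 8 members tested over both crosses. In JF1/Ms x C57BL/6 it had 2236, 3726, 2398 and 3630 CPM in the uniparental 1PN embryos. The 3 1PN embryos of that cross lay between 227.4 and 588.3 CPM with a median of 473.6 CPM, and the 21 2PN embryos between 223.6 and 3866 CPM around a median of 489.1 CPM. All 4 uniparental embryos were above the 3 1PN embryos and above 20 of the 21 2PN embryos, since only 2PN embryo 8 was higher than the lowest of them. In C57BL/6 x JF1/Ms the 8 uniparental 1PN embryos had from 556.6 to 1604 CPM with a median of 852.3, the 11 1PN embryos from 433.8 to 848.5 with a median of 534.4, and the 43 2PN embryos from 202.1 to 1056 with a median of 462.5. The parthenotes had from 494.1 to 1742 CPM with a median of 890.5. Within C57BL/6 x JF1/Ms the groups overlapped, although each of the 8 uniparental 1PN embryos and each of the 31 parthenotes stood above the 2PN median. By group median the order was uniparental JF1/Ms x C57BL/6, parthenote, uniparental C57BL/6 x JF1/Ms, and then the 4 biparental groups, whose ranges overlapped throughout.

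**Figure D1:**
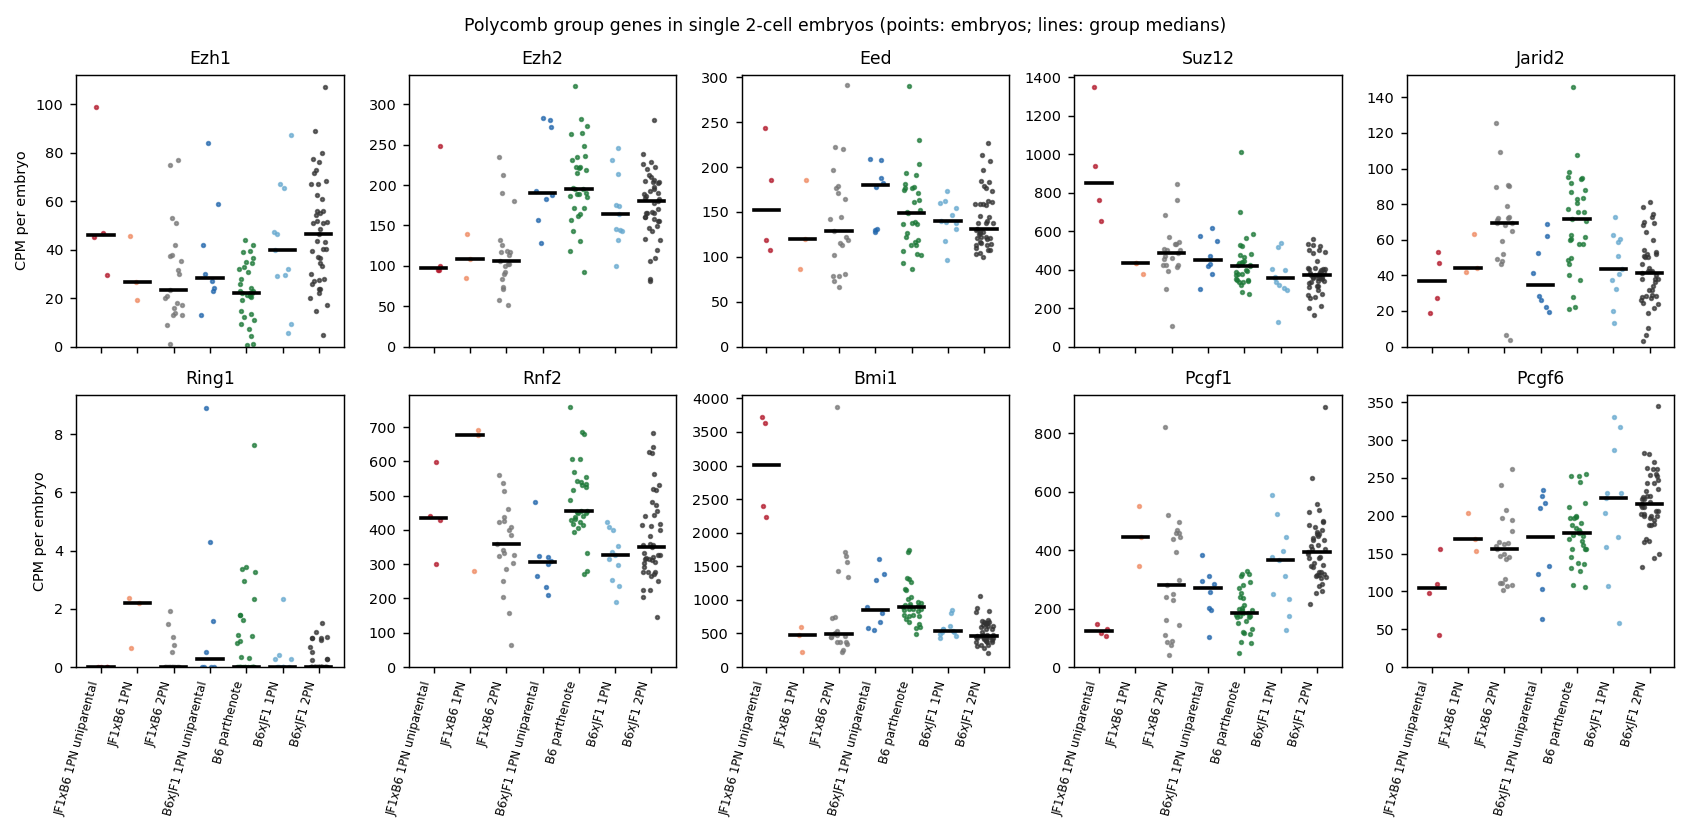
Levels of the 10 Polycomb genes in CPM (y axis of each panel, starting at 0) in single 2-cell embryos, with 1 point per embryo and a line at the group median; JF1xB6 stands for JF1/Ms x C57BL/6 and B6xJF1 for C57BL/6 x JF1/Ms. The 4 uniparental 1PN embryos of JF1xB6 lie between 2236 and 3726 CPM for Bmi1 and between 106.8 and 148.2 CPM for Pcgf1, against medians of 489.1 and 279.9 CPM in the 2PN embryos of that cross.

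Over both crosses, edgeR's quasi-likelihood test called 4 of the 9 members tested between uniparental 1PN and 2PN embryos, with Bmi1 and Suz12 higher and Pcgf1 and Pcgf6 lower. Of all 22785 genes tested, 34.1% were called in this comparison, so a share of 4 in 9 is not far from that of all genes. For Bmi1 the log2 fold change was 1.18 ± 0.21 (SE; edgeR, adjusted p = 1.02e-05), a factor of 2.26, and it exceeded the 2PN median of its own cross in 12 of 12 uniparental embryos. It was also higher than in 1PN embryos, by 1.21 ± 0.29 (SE; edgeR, adjusted p = 0.00151). Against 1PN embryos edgeR called Bmi1, Suz12, Pcgf1 and Pcgf6 again, 4 of 9, beside 25.3% of all genes. Without JF1/Ms x C57BL/6 embryos 1 and 2 the Suz12 call was lost there (0.44, adjusted p = 0.0806), while Bmi1 (1.04, adjusted p = 0.00769), Pcgf1 (-0.90, adjusted p = 0.0262) and Pcgf6 (-0.54, adjusted p = 0.0322) were called, beside 19.6% of all genes. RLE size factors ended the Pcgf6 call against 1PN embryos (-0.41, adjusted p = 0.063). Against 2PN embryos the median log2 fold change of the 9 members was 0.07 and that of all genes tested was 0.19. With JF1/Ms x C57BL/6 embryos 1 and 2 left out the Bmi1 difference from 2PN was 0.99 (adjusted p = 0.000464), and 25.5% of all genes were called.

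Suz12, the PRC2 core subunit (chromosome 11, 79993106 to 80034123), had 761.9, 937.2, 652.8 and 1353 CPM in the uniparental 1PN embryos of JF1/Ms x C57BL/6. The 1PN embryos of that cross had 377.0 to 436.0 CPM and the 2PN embryos 106.9 to 843.1 CPM around a median of 485.1. For C57BL/6 x JF1/Ms the medians were 449.4 CPM in uniparental 1PN, 356.9 CPM in 1PN and 370.7 CPM in 2PN embryos, with overlapping ranges. Over both crosses Suz12 was higher than in 2PN embryos by 0.45 ± 0.14 (SE; edgeR, adjusted p = 0.00753) and above the 2PN median in 11 of 12 embryos. This call was lost without embryos 1 and 2, where the difference was 0.33 (adjusted p = 0.0831).

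Pcgf1, the RING finger partner of Kdm2b and Bcor in a variant PRC1 (chromosome 6, 83077552 to 83080855), had 129.0, 148.2, 116.2 and 106.8 CPM in the uniparental 1PN embryos of JF1/Ms x C57BL/6. The 1PN embryos of this cross had 346.3 to 551.3 CPM with a median of 445.4, and the 2PN embryos 41.3 to 822.2 CPM around a median of 279.9. Within C57BL/6 x JF1/Ms it ran from 103.6 to 385.2 CPM with a median of 271.2 in uniparental 1PN embryos, from 127.4 to 589.8 with a median of 368.1 in 1PN embryos, and from 215.0 to 889.1 with a median of 393.5 in 2PN embryos. In each of the 12 uniparental embryos Pcgf1 was below the 2PN median of its cross, while the ranges overlapped. The log2 fold change over both crosses was -0.98 ± 0.24 (SE; edgeR, adjusted p = 0.000807). Pcgf6, which joins the DNA-binding proteins Mga and Max in another variant PRC1 (chromosome 19, 47033617 to 47050939), had 98.2, 42.3, 156.0 and 109.8 CPM in the uniparental 1PN embryos of JF1/Ms x C57BL/6. The 2PN embryos of that cross had 102.5 to 262.4 CPM with a median of 155.8. Over both crosses Pcgf6 fell by 0.62 ± 0.15 on the log2 scale (SE; edgeR, adjusted p = 0.00087), although only 8 of 12 embryos were below the 2PN median. Without JF1/Ms x C57BL/6 embryos 1 and 2 both calls were made again, with Pcgf1 at -0.98 (edgeR, adjusted p = 0.00377) and Pcgf6 at -0.57 (edgeR, adjusted p = 0.0052).

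**Figure D2:**
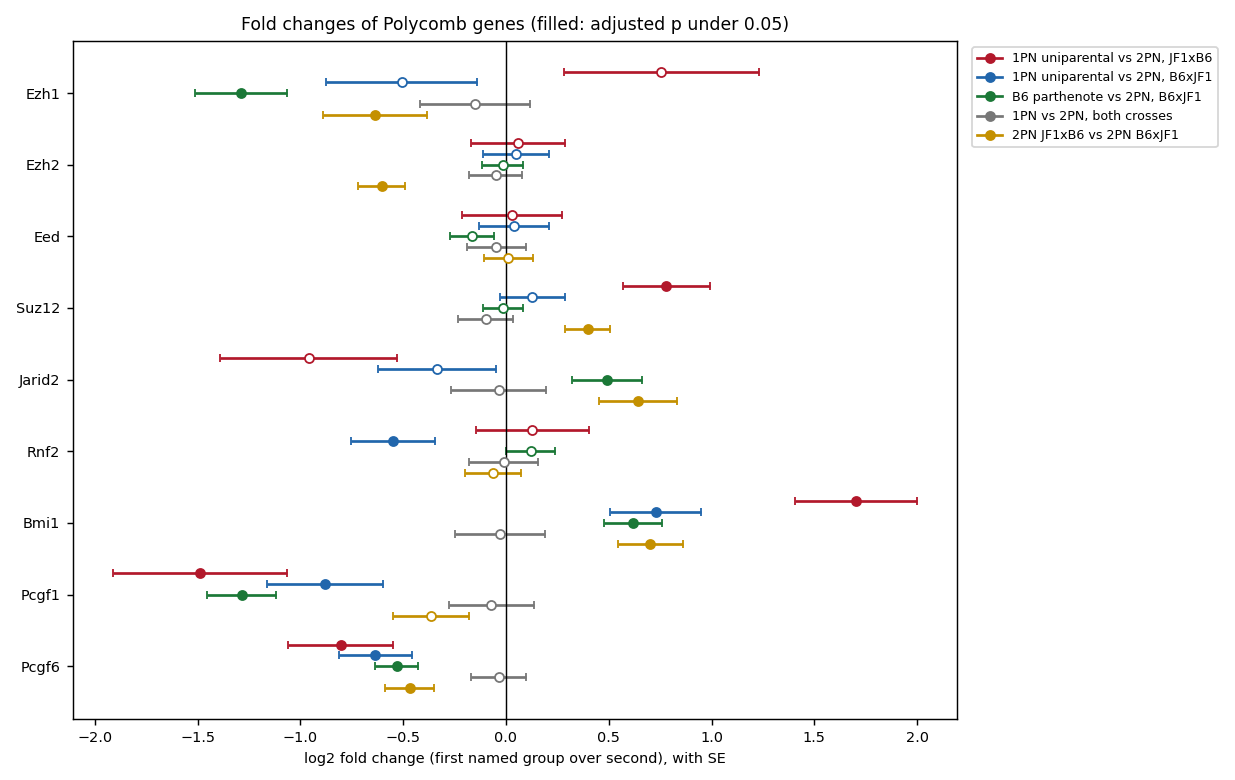
Log2 fold changes (x axis) of the 9 members with counts enough for all fits, with bars of 1 SE; the first named group is divided by the second, and filled points passed an adjusted p of 0.05. Bmi1 lies to the right of 0 and Pcgf1 and Pcgf6 to the left in the 3 comparisons of uniparental embryos with 2PN embryos, and all 9 points of 1PN against 2PN are open and near 0.

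The remaining members were not called by edgeR over both crosses, and their intervals show what was left undetected. Ezh2 differed by 0.13 (approximate 95% interval -0.13 to 0.40 on the log2 scale), Eed by 0.11 (-0.18 to 0.40), Ezh1 by 0.07 (-0.49 to 0.62), Jarid2 by -0.45 (-0.95 to 0.04) and Rnf2 by -0.24 (-0.60 to 0.12). DESeq2 did call Ezh2 higher (0.34, adjusted p = 0.0359). Without JF1/Ms x C57BL/6 embryos 1 and 2, none of the 5 was called in edgeR either, with Ezh2 at -3.65e-05, Eed at 0.04, Ezh1 turned to -0.31, Jarid2 at -0.53 and Rnf2 at -0.36. Ezh2 had 248.1, 94.3, 94.7 and 99.8 CPM in the uniparental 1PN embryos of JF1/Ms x C57BL/6, against a median of 105.5 CPM in 2PN embryos of that cross. A gene model named F830010H11Rik overlaps Ezh2, and since the use of strand in the counting is not stated, their reads cannot be told apart. Ring1 was barely detected. Its RNA gave 220 counts over all the libraries compared and at least 1 count in 43 of them, with 0 counts in each of the 4 uniparental 1PN embryos of JF1/Ms x C57BL/6, and it was too low to be tested over both crosses. Ring1 passed the filter on low counts only in the fit that included the parthenotes, so nothing is read from its calls below.

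Within JF1/Ms x C57BL/6, the test called Bmi1 (1.70 ± 0.30, adjusted p = 2.64e-06) and Suz12 (0.78 ± 0.21, adjusted p = 0.00234) higher, and Pcgf1 (-1.49 ± 0.42, adjusted p = 0.00363) and Pcgf6 (-0.80 ± 0.26, adjusted p = 0.0101) lower, in uniparental 1PN than in 2PN embryos (SE; edgeR). These are 4 of 10 members, beside 31.7% of all 24380 genes tested, and the median of all genes lay at -0.52 in this comparison. Without embryos 1 and 2, where 8.99% of all genes were called, both higher calls were made again. Pcgf1 then stood at -1.58 (adjusted p = 0.0636) and Pcgf6 at -0.33 (adjusted p = 0.541), neither called. Leaving out embryo 2 alone also ended the Pcgf6 call, at -0.60 (adjusted p = 0.12), and so did DESeq2 (-0.48, adjusted p = 0.0642) and RLE size factors (-0.47, adjusted p = 0.104). Ezh1 was not called by edgeR (0.75 ± 0.47, SE; adjusted p = 0.208), with 4 of 4 uniparental embryos above the 2PN median. It was called higher by DESeq2 (1.13, adjusted p = 0.0466) and with RLE size factors (1.13, adjusted p = 0.0458), and stood at 0.23 (edgeR, adjusted p = 0.874) without embryos 1 and 2. Within C57BL/6 x JF1/Ms, 5 of 10 members, Ring1 among them, were called beside 22.4% of all genes. Bmi1 was higher by 0.73 ± 0.22 (adjusted p = 0.0119), and Pcgf1 (-0.88 ± 0.28, adjusted p = 0.0171), Pcgf6 (-0.64 ± 0.18, adjusted p = 0.00556) and Rnf2 (-0.55 ± 0.21, adjusted p = 0.0407) were lower (SE; edgeR). Rnf2, the main H2A ubiquitin ligase of PRC1, had a median of 305.1 CPM in the 8 uniparental 1PN embryos and 350.5 CPM in the 43 2PN embryos, and 7 of 8 lay below that median. Its call was lost under DESeq2, limma voom, RLE size factors, library totals and no filter on low counts, with adjusted p from 0.0516 to 0.205. The Pcgf6 call was lost with library totals (-0.42, adjusted p = 0.057), and DESeq2 called Suz12 higher in this cross (0.37, adjusted p = 0.0465). Ring1, the other ligase, was called higher (adjusted p = 0.0197) on 44 counts in 4 of 8 uniparental 1PN embryos, against 38 counts in 12 of 43 2PN embryos, and 22 of those 44 came from 1 embryo. DESeq2 (adjusted p = 0.0622) and limma voom (adjusted p = 0.173) did not call it.

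Bmi1 differed more between uniparental 1PN and 2PN embryos in JF1/Ms x C57BL/6 than in C57BL/6 x JF1/Ms, by 0.97 ± 0.40 on the log2 scale (SE), which did not pass the test of that difference (edgeR interaction term, adjusted p = 0.0771). For Suz12 the difference between the crosses was 0.65 ± 0.27 (SE; edgeR, adjusted p = 0.0806). None of the 10 members passed this test in edgeR, beside 16.6% of all genes, while 5 had an unadjusted p under 0.05, DESeq2 called 2 (Suz12 and Rnf2) and limma voom called 1 (Bmi1, adjusted p = 0.000772). RLE size factors also called Suz12 (0.78, adjusted p = 0.0306) and Rnf2 (0.89, adjusted p = 0.0331). Without embryos 1 and 2 edgeR again called 0 of 10, beside 4.85% of all genes, with Bmi1 at 0.91 (adjusted p = 0.338) and Suz12 at 0.74 (adjusted p = 0.211).

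No Polycomb gene was found to differ between 1PN embryos with both genomes and 2PN embryos. Over both crosses edgeR called 0 of 9 members, beside 0.263% of all genes, none of the 9 had an unadjusted p under 0.05, and DESeq2 and limma voom called 0. Bmi1 differed by -0.03 (approximate 95% interval -0.46 to 0.40 on the log2 scale), Ezh2 by -0.05 (-0.30 to 0.20), Suz12 by -0.10 (-0.36 to 0.16), Pcgf6 by -0.04 (-0.30 to 0.23) and Pcgf1 by -0.07 (-0.48 to 0.33). The widest interval was that of Ezh1, from -0.67 to 0.37. Within C57BL/6 x JF1/Ms the count was 0 of 10 beside 0.607% of all genes, again with none at an unadjusted p under 0.05 and none called by DESeq2 or limma voom. Within JF1/Ms x C57BL/6, with 3 1PN embryos, edgeR, DESeq2 and limma voom each called 0 of 10 beside 0.0369% of all genes in edgeR. There 2 members had an unadjusted p under 0.05, Rnf2 with 279.9, 678.2 and 690.6 CPM in 1PN embryos against a 2PN median of 359.0, and Bmi1 with 227.4, 473.6 and 588.3 CPM against 489.1. The test of whether the 1PN difference depends on the cross called 0 of 10 beside 0.0205% of all genes, with 2 at an unadjusted p under 0.05 and 0 in DESeq2 and limma voom.

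C57BL/6 parthenotes differed from C57BL/6 x JF1/Ms 2PN embryos in 6 of 10 members, Ring1 among them, beside 44.4% of all genes. They differ from those embryos both in lacking a paternal genome and in strain, and the strain difference and the missing genome cannot be told apart here. Bmi1 was higher by 0.62 ± 0.14 (SE; edgeR, adjusted p = 0.000175), and Pcgf1 was lower by 1.29 on the log2 scale (-1.29 ± 0.17, SE; edgeR, adjusted p = 1.85e-10), with medians of 186.6 CPM in parthenotes and 393.5 CPM in 2PN embryos. Pcgf6 was lower too, at -0.53 ± 0.10 (SE; edgeR, adjusted p = 1.09e-05). Each of the 31 parthenotes was below the 2PN median of Pcgf1, and 26 of 31 were below that of Pcgf6.

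The 2 PRC2 members called in parthenotes moved in opposite directions. Ezh1, the methyltransferase prominent in cells that do not divide (chromosome 11, 101191115 to 101226463), ran from 0.73 to 43.9 CPM with a median of 22.3 in parthenotes, and from 4.73 to 107.1 CPM with a median of 46.7 in 2PN embryos. All 31 parthenotes were below that 2PN median, and the log2 fold change was -1.29 ± 0.22 (SE; edgeR, adjusted p = 8.47e-07). Jarid2 had a median of 71.7 CPM in parthenotes and 41.3 CPM in 2PN embryos, with 26 of 31 parthenotes above the 2PN median, and was higher by 0.49 ± 0.17 (SE; edgeR, adjusted p = 0.0129). Ring1 was called higher by 1.84 ± 0.61 (SE; edgeR, adjusted p = 0.00923), yet it was at 0 in the median embryo of both groups, with 99 counts over 31 parthenotes and 38 over 43 2PN embryos. Since Ring1 passed the filter on low counts only with the parthenotes in the fit, nothing is read from this call. Ezh2, Eed, Suz12 and Rnf2 were not called by edgeR with TMM scaling. Suz12 stood at -0.01 there, and it turned to a call at 0.24 with library totals (adjusted p = 0.047) and at 0.21 in DESeq2 (adjusted p = 0.0491). Rnf2 stood at 0.12 and was called higher by DESeq2 (0.31, adjusted p = 0.00877), with RLE size factors (0.31, adjusted p = 0.012) and with library totals (0.36, adjusted p = 0.00487).

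Set against parthenotes, the uniparental 1PN embryos of C57BL/6 x JF1/Ms showed no member past the threshold in edgeR, 0 of 10 beside 1.87% of all genes. There were 3 members at an unadjusted p under 0.05 (Ezh1, Jarid2 and Rnf2), and DESeq2 called 1 (Rnf2, adjusted p = 0.023) while limma voom called 0. Bmi1 differed by 0.11 (approximate 95% interval -0.36 to 0.58) and Pcgf1 by 0.41 (-0.11 to 0.92). Jarid2 had medians of 34.8 CPM in the 8 uniparental 1PN embryos and 71.7 CPM in parthenotes, with all 8 below the parthenote median (-0.83 ± 0.31, SE; edgeR, adjusted p = 0.132). The comparison of uniparental 1PN with 2PN embryos and that of parthenotes with 2PN embryos share the 43 2PN embryos.

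Between 2PN embryos of the 2 crosses edgeR called 6 of 10 members, beside 40.2% of all genes. JF1/Ms x C57BL/6 embryos had more Bmi1 (0.70 ± 0.16, adjusted p = 0.000172), Jarid2 (0.64 ± 0.19, adjusted p = 0.00416) and Suz12 (0.40 ± 0.11, adjusted p = 0.00181) and less Ezh2 (-0.60 ± 0.12, adjusted p = 8.88e-06), Ezh1 (-0.64 ± 0.25, adjusted p = 0.0337) and Pcgf6 (-0.47 ± 0.12, adjusted p = 0.000823) than C57BL/6 x JF1/Ms embryos (SE; edgeR). Ezh2 (chromosome 6, 47530274 to 47595270) ran from 51.5 to 235.3 CPM in JF1/Ms x C57BL/6 2PN embryos (median 105.5), and from 81.6 to 281.0 CPM in C57BL/6 x JF1/Ms 2PN embryos (median 179.9), and 17 of 21 JF1/Ms x C57BL/6 embryos lay below the second median. Jarid2 medians were 69.4 CPM in JF1/Ms x C57BL/6 and 41.3 CPM in C57BL/6 x JF1/Ms 2PN embryos, with 19 of 21 embryos of the first cross above the second median. The Bmi1 call rested on the upper part of the group, since the 2 medians were 489.1 CPM in JF1/Ms x C57BL/6 and 462.5 CPM in C57BL/6 x JF1/Ms and only 12 of 21 embryos were above, and limma voom did not make it (0.34, adjusted p = 0.0791). Pcgf1 was not called by edgeR (-0.37 ± 0.19, SE; adjusted p = 0.107), whereas DESeq2 (-0.41, adjusted p = 0.0384), limma voom (-0.59, adjusted p = 0.00783) and RLE size factors (-0.41, adjusted p = 0.0444) called it lower in JF1/Ms x C57BL/6. With only libraries of at least 2000000 counts Ezh1 was not called (-0.40, adjusted p = 0.263). Libraries were shallower in JF1/Ms x C57BL/6 (median 2521857 counts) than in C57BL/6 x JF1/Ms (median 3867552 counts), and the part of depth in these differences was not tested beyond that setting.

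Embryos of 1 group varied widely in Bmi1, and mostly among 2PN embryos of JF1/Ms x C57BL/6. Its coefficient of variation was 0.967 there, against 0.331 in 2PN embryos of C57BL/6 x JF1/Ms. The 6 embryos of highest Bmi1 in that group were embryo 8 with 3866 CPM, embryo 21 with 1709 CPM, embryo 6 with 1654 CPM, embryo 10 with 1565 CPM, embryo 14 with 1432 CPM and embryo 3 with 1339 CPM. In those embryos Pcgf1 had 84.5, 41.3, 109.0, 89.5, 143.4 and 76.6 CPM, where the group median was 279.9 CPM. In the same order their libraries held 3784871, 533116, 1531990, 1296379, 2440579 and 1200540 counts, against a group median of 2521857. The 6 embryos were picked for their Bmi1 level, so no test is given for them.

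**Figure D3:**
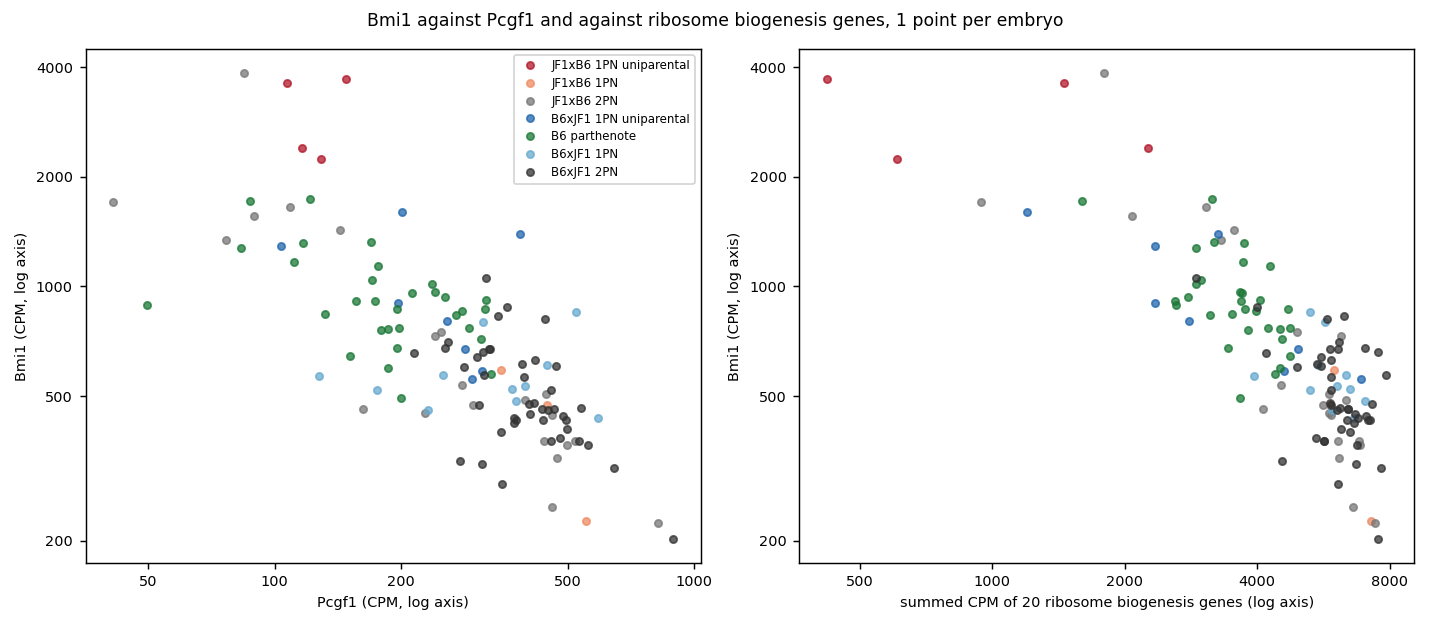
Bmi1 in CPM (y axes) against Pcgf1 in CPM (left) and against the summed CPM of 20 ribosome biogenesis genes (right), all on log axes, with 1 point per embryo coloured by group. Within the 21 JF1xB6 2PN embryos, those of high Bmi1 lie at low Pcgf1 and at low ribosome biogenesis levels (r = -0.887 and -0.849), and in the other groups r ran from -0.549 to 0.124 for Pcgf1 and from -0.838 to -0.365 for ribosome biogenesis.

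Bmi1 and Pcgf1 ran in opposite directions among the 2PN embryos of each cross and among the parthenotes. This pair, and the relations of both genes to ribosome biogenesis genes given further below, were picked after values had been seen. Their p-values, also the adjusted ones, do not cover that choice. Both genes also share a library and its total. Over all embryos compared, with group means taken out, r with the library total was 0.54 for Pcgf1 and -0.258 for Bmi1. The part of depth in these relations was not tested. Over log2(CPM + 1), Pearson's r was -0.887 and Spearman's rho -0.884 in the 21 JF1/Ms x C57BL/6 2PN embryos (permutation p = 1e-05 for each, the smallest that 100000 resamples give; adjusted over 15 relations p = 5e-05). Without the 2 embryos farthest from the median Pcgf1, r was -0.898. In the 31 parthenotes r was -0.475 and rho -0.464 (permutation p = 0.00727 and 0.00862, the first adjusted to 0.0136; r without 2 embryos -0.546). In the 43 C57BL/6 x JF1/Ms 2PN embryos r was -0.549 and rho -0.484 (permutation p = 0.00016 and 0.00137, the first adjusted to 0.0006; r without 2 embryos -0.416). No such relation was found in the 11 1PN embryos of that cross, where r was 0.124 and rho 0.073 (permutation p = 0.724 and 0.838; adjusted 0.724; r without 2 embryos 0.106), and in the 8 uniparental 1PN embryos r was -0.406 and rho -0.357 (exact permutation p = 0.336 and 0.389; adjusted 0.36; r without 2 embryos -0.853).

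The ratio of Bmi1 to Pcgf1 counts within an embryo, which does not depend on how the library is scaled, gives the same contrast between groups. Its median was 22.8 in uniparental 1PN embryos of JF1/Ms x C57BL/6 (17.3 to 33.8), 1.06 in 1PN embryos (0.413 to 1.7) and 1.91 in 2PN embryos of that cross (0.272 to 45.7). In C57BL/6 x JF1/Ms it was 3.37 in uniparental 1PN (1.88 to 12.5), 1.62 in 1PN (0.736 to 4.44) and 1.15 in 2PN embryos (0.227 to 3.3), and it was 4.27 in parthenotes (1.75 to 19.6). Gene length enters this ratio, so it is read only between groups, and it was chosen after the values had been seen.

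Ribosome biogenesis genes, which make ribosomal RNA and assemble ribosomes, were lower in uniparental 1PN embryos, and their relation to Bmi1 and Pcgf1 among embryos differed in size from group to group. Their summed level over 20 genes had a median of 1032 CPM in uniparental 1PN and 5820 CPM in 2PN embryos of JF1/Ms x C57BL/6. The medians were 3038 CPM in uniparental 1PN and 6137 CPM in 2PN embryos of C57BL/6 x JF1/Ms, and 3699 CPM in parthenotes. Of the 20 genes, 18 were called lower and 0 higher between uniparental 1PN and 2PN embryos over both crosses, beside 34.1% of all genes called. Tsr1, Wdr12, Nolc1 and Wdr43 stood at log2 fold changes of -3.31, -1.83, -1.34 and -1.62. Without JF1/Ms x C57BL/6 embryos 1 and 2, 16 of the 20 genes were called lower and 0 higher, beside 25.5% of all genes. The sum was 2255 CPM in embryo 3 and 1457 CPM in embryo 7. In the 21 2PN embryos of JF1/Ms x C57BL/6, r between that sum and Bmi1 was -0.849 and rho -0.87 (permutation p = 1e-05 for each; r without 2 embryos -0.874; adjusted 5e-05). Between that sum and Pcgf1 r was 0.918 and rho 0.877 in the same embryos (permutation p = 1e-05 for each; r without 2 embryos 0.903; adjusted 5e-05). The relation to Bmi1 was looser in the 31 parthenotes, with r -0.579 and rho -0.531 (permutation p = 0.00067 and 0.00235; adjusted 0.00201; r without 2 embryos -0.474), and in the 43 C57BL/6 x JF1/Ms 2PN embryos, with r -0.478 and rho -0.342 (permutation p = 0.00132 and 0.0251; adjusted 0.0033; r without 2 embryos -0.246). It was -0.838 and -0.81 in the 8 uniparental 1PN embryos of that cross (exact permutation p = 0.00878 and 0.0218; adjusted 0.0146; r without 2 embryos -0.653), and in the 11 1PN embryos -0.365 and -0.573 did not pass (permutation p = 0.265 and 0.0712; adjusted 0.306; r without 2 embryos -0.584). With Pcgf1, r was 0.551 and rho 0.46 in the parthenotes (permutation p = 0.00225 and 0.00998; adjusted 0.00482; r without 2 embryos 0.488), and 0.357 and 0.214 in the 43 2PN embryos (permutation p = 0.0208 and 0.168; adjusted 0.0312; r without 2 embryos 0.379). In the 8 uniparental 1PN embryos r of 0.535 and rho of 0.69 with Pcgf1 did not pass (exact permutation p = 0.176 and 0.0694; adjusted 0.22; r without 2 embryos 0.656). In the 11 1PN embryos r was 0.62 and rho 0.355 (permutation p = 0.0401 and 0.284; adjusted 0.0546; r without 2 embryos 0.223). Of 19 oocyte transcripts, 11 were called higher and 0 lower in uniparental 1PN than in 2PN embryos over both crosses, beside 34.1% of all genes. Among them were Btg4 and Cnot6l, which act in the removal of maternal RNA. Without embryos 1 and 2 the counts were 10 and 0, beside 25.5% of all genes. They were 10 and 0 within JF1/Ms x C57BL/6 (31.7% of all genes) and 9 and 1 within C57BL/6 x JF1/Ms (22.4%). In parthenotes 4 were higher and 3 lower than in C57BL/6 x JF1/Ms 2PN embryos, beside 44.4% of all genes. The part that these measures have in the Bmi1, Suz12, Pcgf1 and Pcgf6 results was not tested.

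For each member, the genes most alike were sought over all embryos compared with the group means taken out. The search covered the 8005 genes that averaged 10 CPM or more. Bmi1 had the closest company, with Rasa2 (r = 0.852), the deubiquitinase Usp15 (0.826) and the oocyte kinase Wee2 (0.822). Suz12 was closest to Ppp4r2 (0.734), Wdr26 (0.727) and Mbtd1 (0.693). Pcgf1 was closest to the proteasome subunit Adrm1 (0.742), Ccdc124 (0.736) and Tpm3 (0.732). Pcgf6 was closest to Ppm1g (0.523), Slc5a6 (0.522) and Dpf2 (0.499). Ezh1 was closest to Dicer1 (0.596), Wars (0.503) and Aebp2 (0.499), the last an accessory subunit of PRC2. For Ezh2 they were Smap1 (0.522), Tmem126a (0.505) and Zc3h15 (0.495), for Eed the oocyte linker histone H1foo (0.54), C87499 (0.501) and Mea1 (0.492), for Jarid2 Elavl3 (0.5), Mlxip (0.495) and Maco1 (0.464), and for Rnf2 the RNA-binding protein Qk (0.578), Ipo5 (0.565) and Nptn (0.562). Bmi1 with Pcgf1 had r = -0.659 on this scale.

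Other genes of the pathway were called in both directions, in shares to be read beside the 34.1% of all genes called between uniparental 1PN and 2PN embryos. Of 8 further PRC2 genes tested between uniparental 1PN and 2PN embryos, 2 were higher, 2 were lower and 4 were not called, with a median log2 fold change of 0.23 beside 0.19 for all genes. The accessory subunits Phf1 (1.14 ± 0.29, adjusted p = 0.00152) and Phf19 (1.90 ± 0.69, adjusted p = 0.0261) were higher, while their relative Mtf2 (-1.62 ± 0.34, adjusted p = 9.53e-05) and the histone chaperone Rbbp4 (-0.69 ± 0.21, adjusted p = 0.00613) were lower (SE; edgeR). Rbbp4 differed by cross, with -2.42 ± 0.37 in JF1/Ms x C57BL/6 (SE; adjusted p = 1.27e-07) and -0.28 ± 0.22 in C57BL/6 x JF1/Ms (SE; adjusted p = 0.362), and the test of that difference was passed (edgeR interaction term, adjusted p = 3.86e-05). With uneven embryos 1 and 2 left out, the counts over both crosses were again 2 higher and 2 lower, beside 25.5% of all genes, with Rbbp4 at -0.53 (adjusted p = 0.0498). Of these 8 genes the interaction term then called 0 higher and 1 lower, beside 4.85% of all genes. With all embryos it called 2 and 2, beside 16.6% of all genes. Mtf2 had medians of 484.8 CPM in uniparental 1PN embryos and 1352 CPM in 2PN embryos over both crosses, and Phf1 medians of 54.7 CPM in uniparental 1PN and 19.5 CPM in 2PN embryos. Phf19 was at 2.0 CPM in the median uniparental 1PN embryo and at 0 in the median 2PN embryo.

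Of 26 further PRC1 genes, 5 were higher and 5 lower, with a median of 0.35 (2 higher and 4 lower without embryos 1 and 2, beside 25.5% of all genes). Among the 4 with the smallest p, Max (1.50 ± 0.32, adjusted p = 0.000174) and Scml2 (1.28 ± 0.31, adjusted p = 0.000807) were higher, and L3mbtl2 (-1.38 ± 0.33, adjusted p = 0.000649) and Pcgf5 (-1.27 ± 0.30, adjusted p = 0.000616) were lower (SE; edgeR). Scml2 was not called without embryos 1 and 2 (0.53, adjusted p = 0.229). With all embryos its difference depended on the cross (2.15 in JF1/Ms x C57BL/6 and 0.49 in C57BL/6 x JF1/Ms; edgeR interaction term, adjusted p = 0.0367). So did that of L3mbtl2, at -3.33 in JF1/Ms x C57BL/6 and -0.96 in C57BL/6 x JF1/Ms (edgeR interaction term, adjusted p = 0.00438). Among these 26 genes the interaction term called 1 higher (Scml2) and 3 lower with all embryos, beside 16.6% of all genes. Without embryos 1 and 2 it called 0 higher and 2 lower, beside 4.85% of all genes, so the Scml2 call was lost. L3mbtl2 and Max both act in complexes with Pcgf6. Of 15 genes that act against Polycomb, 4 were higher and 3 lower, with a median of 0.35 (2 higher and 1 lower without embryos 1 and 2, beside 25.5% of all genes). They include the H3K4 methyltransferase Kmt2c (0.63 ± 0.12, adjusted p = 4.02e-05), the H3K36 methyltransferase Nsd1 (0.61 ± 0.17, adjusted p = 0.0039) and the H2A deubiquitinase Usp21 (1.11 ± 0.34, adjusted p = 0.00733), all higher, and the H2A deubiquitinase Usp16 (-0.67 ± 0.14, adjusted p = 0.00013), lower (SE; edgeR). Nsd1 was at 1.09 in JF1/Ms x C57BL/6 (adjusted p = 0.000251) and 0.17 in C57BL/6 x JF1/Ms (adjusted p = 0.527; edgeR interaction term, adjusted p = 0.0359), and it was not called without embryos 1 and 2 (0.29, adjusted p = 0.235). Without those embryos the interaction term was called for 0 of these 15 genes, beside 4.85% of all genes. With all embryos it was called for 1 higher and 1 lower, beside 16.6% of all genes. Between 1PN and 2PN embryos over both crosses edgeR, DESeq2 and limma voom called 0 of the 8 PRC2, 26 PRC1 and 15 opposing genes, and 1 PRC1 gene had an unadjusted p under 0.05. Within C57BL/6 x JF1/Ms the 3 tools also called 0. Within JF1/Ms x C57BL/6 edgeR and limma voom called 0, with 1 PRC2, 4 PRC1 and 3 opposing genes at an unadjusted p under 0.05 in edgeR. DESeq2 called Scmh1 (-2.52, adjusted p = 0.0202), Kdm6b (-1.77, adjusted p = 0.0429) and Usp21 (-2.22, adjusted p = 0.0268) lower in the 3 1PN embryos there.

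**Figure D4:**
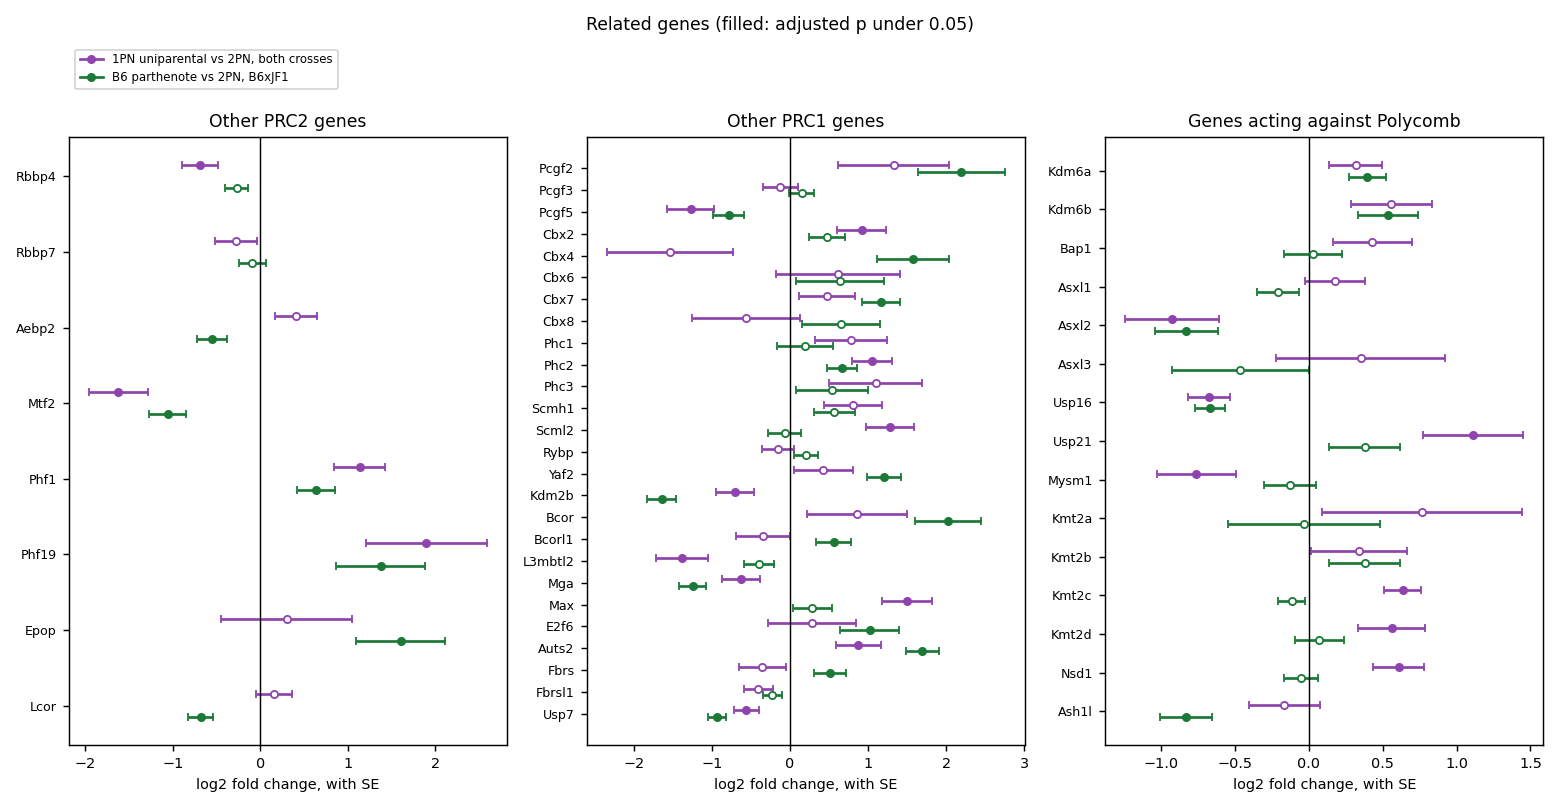
Log2 fold changes (x axis, bars of 1 SE) of other PRC2 genes, other PRC1 genes and genes that act against Polycomb, for uniparental 1PN against 2PN embryos over both crosses (purple) and parthenotes against 2PN embryos of C57BL/6 x JF1/Ms (green); filled points passed an adjusted p of 0.05. Mtf2, Pcgf5 and Usp16 lie to the left of 0 in both comparisons, and Phf1 and Phf19 lie to the right.

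Parthenotes also had calls in both directions against the C57BL/6 x JF1/Ms 2PN embryos, beside 44.4% of all genes called, with 3 of 8 further PRC2 genes higher and 3 lower, 10 of 26 PRC1 genes higher and 4 lower, and 2 of 15 opposing genes higher and 3 lower. Mtf2 was lower in them, at -1.06 ± 0.21 (SE; edgeR, adjusted p = 1.18e-05), and so was Usp16, at -0.67 ± 0.10 (SE; edgeR, adjusted p = 1.79e-08). Max, Scml2 and L3mbtl2 were not called in parthenotes, at 0.29, -0.07 and -0.40.

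Genes known to carry Polycomb marks were mostly near 0 counts. Of 9 genes whose maternal allele is held silent by H3K27me3 in mouse embryos, 5 were lower and 1 (Xist) higher in uniparental 1PN than in 2PN embryos over both crosses, also without embryos 1 and 2. This share was 66.7%, beside 34.1% of all genes, or 25.5% of all genes without embryos 1 and 2. Xist, the RNA that coats the inactive X chromosome, went in opposite directions in the crosses. It had medians of 0 CPM in uniparental 1PN and 1.54 CPM in 2PN embryos of JF1/Ms x C57BL/6 (-4.24, edgeR, adjusted p = 0.0621), but 9.94 CPM in uniparental 1PN and 0.281 CPM in 2PN embryos of C57BL/6 x JF1/Ms (2.79, adjusted p = 0.00247), and the interaction term was called (adjusted p = 0.0135). Jade1 had medians of 0 CPM in uniparental 1PN and 10.6 CPM in 2PN embryos of JF1/Ms x C57BL/6 (-5.52, edgeR, adjusted p = 0.00536), but 16.5 CPM in uniparental 1PN and 5.91 CPM in 2PN embryos of C57BL/6 x JF1/Ms (edgeR, adjusted p = 0.27; interaction term, adjusted p = 0.00557). With all embryos edgeR called 4 of these 9 genes lower within JF1/Ms x C57BL/6 and 2 in the interaction term. Without embryos 1 and 2 it called 0 within that cross, beside 8.99% of all genes, and 0 in the interaction term, beside 4.85%. With all embryos these shares of all genes were 31.7% and 16.6%, so calls became fewer over all genes too. Whether the cross difference of Xist and Jade1 depends on those embryos was not tested further. Sfmbt2 had medians of 0 CPM in uniparental 1PN and 1.46 CPM in 2PN embryos (edgeR, adjusted p = 0.000103), Gab1 had 0 CPM in uniparental 1PN and 1.45 CPM in 2PN embryos (adjusted p = 0.000103), and the non-coding RNA Platr20 had 0 CPM in uniparental 1PN and 1.91 CPM in 2PN embryos (adjusted p = 0.000365), while Smoc1 was at 0 in the median embryo of both (adjusted p = 0.00158). Of 18 developmental regulators with counts enough for the test, 4 were called higher and 1 lower between uniparental 1PN and 2PN embryos in edgeR (likewise without embryos 1 and 2), 1 by DESeq2 and 2 by limma voom. This share of 27.8% was below the 34.1% of all genes. Within C57BL/6 x JF1/Ms edgeR called 9 of 20 higher and 1 lower, beside 22.4% of all genes, while DESeq2 and limma voom each called 3. Those 20 come from the fit that included the parthenotes, and some passed the filter on low counts only there, since 18 passed without the parthenotes. Within JF1/Ms x C57BL/6 edgeR called 0 of 20, beside 31.7% of all genes, with a median log2 fold change of -1.52. Eomes, a T-box transcription factor of early lineages, had medians of 12.9 CPM in uniparental 1PN and 0.884 CPM in 2PN embryos (adjusted p = 0.00354). Nkx2-2 and Sox17 were called higher and Fgf5 lower, all with medians of 0 in both groups. In parthenotes 15 of 20 were higher and 1 (Gata4) lower than in 2PN embryos, beside 44.4% of all genes called, with 14 called by DESeq2 and 14 by limma voom. The 20 include the genes that passed the filter only with the parthenotes in the fit, and the count does not set these apart. Eomes had medians of 14.3 CPM in parthenotes and 1.04 CPM in 2PN embryos (adjusted p = 1.67e-08). Between 1PN and 2PN embryos over both crosses edgeR, DESeq2 and limma voom called 0 of these imprinted genes and developmental regulators, of which 1 and 3 had an unadjusted p under 0.05 in edgeR. Within C57BL/6 x JF1/Ms edgeR called Sox17 higher in 1PN embryos (adjusted p = 0.0198, medians of 0 in both groups), and within JF1/Ms x C57BL/6 DESeq2 called Eomes lower (adjusted p = 0.00713).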

How the data were processed

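Single 2-cell embryos were sequenced from SMART-Seq v4 and Nextera XT libraries, per the labels' protocols. HISAT2 2.0.5, featureCounts 2.0.0 and the build GRCm38 come from the submitters' processing notes. The annotation release and strand setting stay not given in the sources used here. Per gene the authors deposited estimated counts, of which 28.4% of nonzero values were not whole, and they were rounded first. Of the 125 libraries, 4 (1 labelled dead, 3 of low quality) entered no comparison. Of 43421 identifiers 43266 matched a symbol.

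The main test was edgeR's quasi-likelihood F test (version 4.0.16 in R 4.3.3, default form, TMM, filterByExpr by group, Benjamini-Hochberg adjustment over all tested genes, threshold 0.05), in an additive fit with cross for both crosses and a fit of 7 group means otherwise. SE is the log2 fold change over the root of F, and approximate 95% intervals come from that SE. CPM uses library totals, and counting error is smallest in deep libraries. Alternatives were DESeq2 1.42.0, limma 3.58.1 voom, RLE factors, no filter, a replicate block, accession listing and embryos left out. Library totals, a bias-adjusted fit, libraries of at least 2000000 counts and the related lists without 2 uneven embryos were added after seeing the data. The test was checked on simulated data. Members and lists were chosen with earlier results of these data known; all members are named, with up to 4 genes of smallest p per list and 3 most alike genes per member. Figures used matplotlib 3.10.9 and Python 3.11.15.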

Additional observations from a re-analysis of the deposited data

Results flagged for a closer look

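Of 19 sets of values from groups of 4 to 10 embryos, 2 held an embryo set apart from the others, where chance sets apart about 1 in 20. Ezh2 had 248.1 CPM in uniparental 1PN embryo 1 of JF1/Ms x C57BL/6, and the other 3 embryos of that group had 94.3 to 99.8 CPM. Rnf2 had 480.5 CPM in uniparental 1PN embryo 11 of C57BL/6 x JF1/Ms, the highest of 8.

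The embryos left out of all comparisons held further signals. The 1PN embryo of C57BL/6 x JF1/Ms labelled dead, number 16, had 306.4 CPM of Eed, 928.8 CPM of Suz12 and 3411 CPM of Bmi1. Of the 1PN embryos of that cross labelled as low quality, number 6 had 1411 CPM of Bmi1, and number 8 had 594.9 CPM of Suz12 and 1256 CPM of Bmi1. Each of these values was above all 43 2PN embryos of C57BL/6 x JF1/Ms, where Eed reached 226.9, Suz12 557.3 and Bmi1 1056 CPM.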

How the results depend on the processing

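Over all settings tried, 1268 values for members kept their direction and their side of the threshold or moved within the error, 85 moved further, 30 lost a call, 20 gained one and 2 reversed. Both reversals were Suz12 in parthenotes against 2PN embryos, at 0.21 in DESeq2 and 0.24 with library totals, and the cause was not tested. Between uniparental 1PN and 2PN embryos of C57BL/6 x JF1/Ms, limma voom called 1 member higher and library totals called 1 lower. In JF1/Ms x C57BL/6, DESeq2 and RLE factors each called 1 lower, leaving out 1 embryo at a time gave 1 to 2 lower, and leaving out embryos 1 and 2 together gave 0 lower. Against 1PN embryos over both crosses RLE factors called 1 lower, and 1 was called higher without embryos 1 and 2. In parthenotes DESeq2 and library totals each called 5 members higher. In uniparental 1PN embryos against parthenotes, DESeq2, RLE factors, the bias-adjusted fit and libraries of at least 2000000 counts each called 1 lower. In the test of the cross, DESeq2 and RLE factors called 2 higher, limma voom called 1, and leaving out 1 uniparental embryo at a time gave 0 to 1. RLE factors and library totals moved the median of all genes by 0.165 and 0.118 (log2) between uniparental 1PN and 2PN embryos over both crosses, and by 0.199 and 0.238 in parthenotes.

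The labels used here do not say whether the numbers in the titles pair embryos, and the main fits did not pair by them. Deviations of same-numbered embryos had a median correlation of -0.00601 between uniparental 1PN and 2PN embryos of C57BL/6 x JF1/Ms, with 3 of 8 above 0.1, and of -0.0488 in the reciprocal cross, with 0 of 4 above 0.1. With the number as a replicate block, and dispersions from the fit without it, 1 member was called higher between uniparental 1PN and 2PN embryos over both crosses, 0 higher and 0 lower in C57BL/6 x JF1/Ms, and 1 lower in JF1/Ms x C57BL/6. Against 1PN embryos the block gave 1 higher and 0 lower. Depth limits Ring1, whose counts allow no order of levels.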
